A study of Mus musculus with 12 samples.

Results

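Per2 and Ciart are repressors of the circadian clock, and their RNA was compared in the hippocampus of mice under standard housing (SH) and after enriched environment (EE) exposure. Both genes were taken by gene name from the deposited table, which made them 2 of 584 genes. The table holds only genes that the authors had called differentially expressed between SH and EE, so the difference between housing groups had already selected both genes, and the p-values given here describe its size against the spread and are no independent evidence of it. EE here means 5 weeks in cages furnished with objects to explore and hide in, rearranged regularly, and SH means the same time in plain cages. The animals were C57BL/6 males, 3 weeks old when housing began and allotted to it by chance. At 8 weeks of age the hippocampus was taken, and total RNA was sequenced in 3 samples per housing group. The labels do not say whether each sample is 1 animal. All mice were wild type, the treatment field of the labels reads untreated in both groups, and EE cages also held more animals than SH cages. The hour at which each hippocampus was taken is not given in the sources used here, and its part in these values was not tested.

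The mammalian clock is a loop of transcription and translation. The factors CLOCK and BMAL1 (gene Arntl) bind E-boxes in the promoters of the Period and Cryptochrome genes, and the PER and CRY proteins return to the nucleus to repress them. Per2 encodes a core repressor of this loop. Ciart, also called CHRONO, encodes a repressor that binds to BMAL1 and is itself a target of the loop. Outside the suprachiasmatic nucleus, the hippocampus holds a clock of its own, and Per genes also respond to neuronal activity through CREB and to glucocorticoid.

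Ciart lies on the minus strand of chromosome 3 (95878500 to 95882257 of GRCm38, 6 exons in the curated transcript). Per2 lies on the minus strand of chromosome 1 (91415977 to 91459351, 23 exons). Dbp, an output factor of the clock that was also in the table, lies on the plus strand of chromosome 7 (45705100 to 45710203). RefSeq promoter windows of GRCm38.p6, from 250 bases before to 50 bases after the transcription start, were found for 2 of the 4 clock genes in the table, Ciart and Dbp. They are shown because E-boxes are where CLOCK and BMAL1 bind, and capitals mark each canonical E-box (CACGTG).
Ciart, chr3:95882179-95882478, minus strand: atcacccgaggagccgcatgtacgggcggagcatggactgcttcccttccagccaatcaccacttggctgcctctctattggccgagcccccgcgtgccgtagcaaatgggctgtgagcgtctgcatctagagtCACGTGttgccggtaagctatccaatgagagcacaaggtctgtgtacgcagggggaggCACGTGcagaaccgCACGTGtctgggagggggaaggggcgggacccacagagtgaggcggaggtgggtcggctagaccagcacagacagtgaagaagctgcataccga
Dbp, chr7:45704997-45705296, plus strand: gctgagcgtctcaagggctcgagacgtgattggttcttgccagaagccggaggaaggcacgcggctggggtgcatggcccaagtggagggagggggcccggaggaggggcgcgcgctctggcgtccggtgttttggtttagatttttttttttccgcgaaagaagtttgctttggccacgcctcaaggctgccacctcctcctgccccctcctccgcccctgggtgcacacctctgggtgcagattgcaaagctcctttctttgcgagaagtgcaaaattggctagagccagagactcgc

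The Ciart window held 3 E-boxes, beginning 116, 58 and 44 bases before the start. At least 1 E-box was present in 7.15% of all 32851 promoter windows of the same length, and at least 3 were present in 29 of them (0.0883%). The Dbp window held none. The other motifs searched on both strands were the E-prime-box CACGTT (4.68% of all windows), the D-box TTATGTAA or TTACGTAA (1.06%), the cAMP response element TGACGTCA (1.79%) and its shorter form TGACG (20.8%), which lies within the full element. None of these 4 was found in the Ciart or the Dbp window. Of the 26 clock genes that were listed, 21 had a window in the promoter table used here, and among the others with an E-box were Per1, Cry1, Bhlhe41 and Tef. A match describes letters in this window only.

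**Figure D1:**
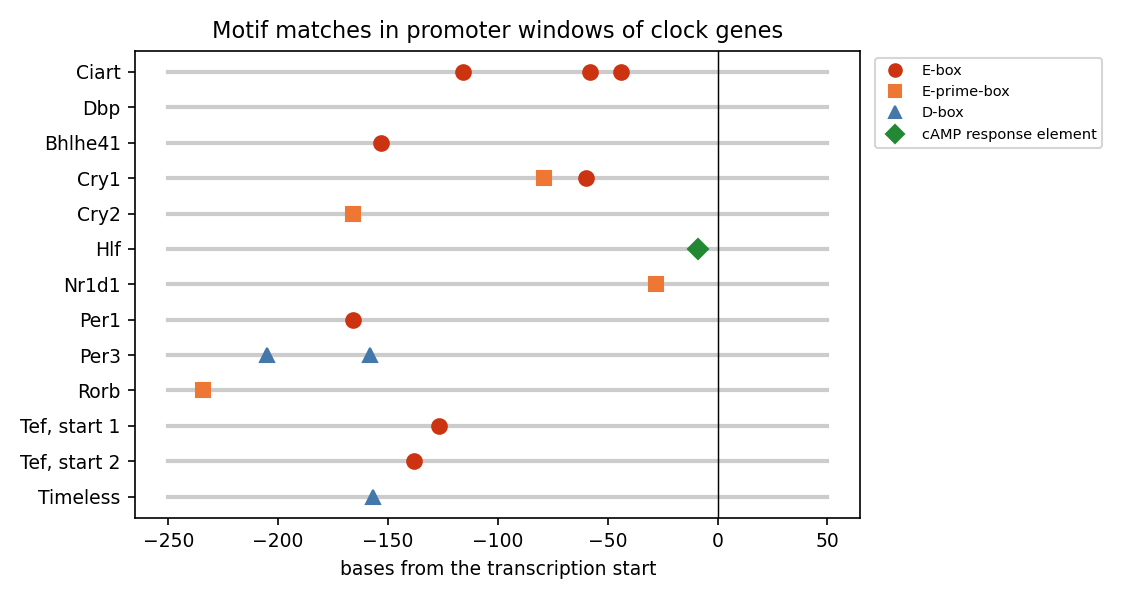
Positions of E-box, E-prime-box, D-box and cAMP response element matches (first base of each match) in RefSeq promoter windows of listed clock genes, in bases from the transcription start. Grey bars are the windows from 250 bases before to 50 bases after the start, for Ciart, Dbp and every listed gene with a match. Ciart shows 3 E-boxes and Dbp shows no match.

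The FPKM values (fragments per kilobase of exon, scaled to the reads of the library) rest on 31969156 to 40319498 reads in the SH libraries and on 37507694 to 53943195 reads in the EE libraries. With edgeR's quasi-likelihood test and these totals as library sizes, 112 of the 584 genes (19.2%) were higher in EE and 237 (40.6%) were lower at an unadjusted p under 0.01. This split depended on the scaling, with 229 higher and 53 lower under TMM factors and 25 and 319 with the sums of the table as library sizes. In DESeq2, where the test differs as well as the scaling, it was 233 and 29. These other scalings are computed from the selected genes themselves, whereas the totals behind the FPKM are not. Without SH replicate 2, EE replicate 1 or EE replicate 2, the higher genes numbered 54, 52 and 58 and the lower genes 111, 88 and 77. In 217 genes (37.2%) every EE library lay above every SH library. Only the 246 genes with a positive log2 fold change could show this, so it held for most of them. Of 45 listed cell type markers, 8 were in the table, among them the excitatory neuron gene Neurod6 at a mean FPKM of 138.1 in SH and 154.9 in EE. The other markers, including all 5 of the suprachiasmatic nucleus, were not analysed here. In whole tissue, fewer cells of a type and less RNA per cell cannot be told apart.

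Per2 had an FPKM of 7.16, 6.54 and 6.31 in SH replicates 1, 2 and 3, from 1380, 1523 and 1536 reads. In EE replicates 1, 2 and 3 it had 8.15, 8.08 and 8.48, from 1844, 2065 and 2759 reads. The groups did not overlap, and the lowest EE library was 1.13 times the highest SH library. The mean rose from 6.67 ± 0.43 (SD, n = 3) to 8.24 ± 0.21 (SD, n = 3). The log2 fold change was 0.31 (standard error 0.06), a 1.24-fold higher level, and edgeR gave an unadjusted p of 0.000723 and, after Benjamini-Hochberg correction across the table, an adjusted p of 0.014. As the table holds only called genes, 583 of the 584 had an adjusted p under 0.05. The adjusted p-values given here are thus no correction over all expressed genes. Without the deepest library of each group, replicate 3 of SH and of EE, a choice made after the data were seen, the log2 fold change was 0.25 and the unadjusted p from edgeR was 0.015, above 0.01. Of the exon bases of Per2, 11.6% are shared with exons of Gm35591, a lncRNA on the opposite strand, and the sources used here do not say whether reads were counted by strand, so reads of both genes may be mixed there.

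Ciart had an FPKM of 2.88, 2.18 and 3.01 in SH replicates 1, 2 and 3, from 241, 220 and 317 reads. In EE replicates 1, 2 and 3 it had 4.24, 3.62 and 5.12, from 416, 401 and 722 reads. Every EE library was again above every SH library, and the lowest EE library was 1.20 times the highest SH library. Mean FPKM rose from 2.69 ± 0.45 (SD, n = 3) to 4.33 ± 0.75 (SD, n = 3). The log2 fold change was 0.69 (standard error 0.15), a 1.61-fold higher level, and edgeR gave an unadjusted p of 0.0010 and an adjusted p of 0.014. Ciart lies wholly within the lncRNA C920021L13Rik of the opposite strand, with 0 exon bases in common in this annotation. The length behind the deposited FPKM of Ciart, 2615 bases, was 1.15 times the 2265 exon bases of this annotation, which bears on its level but not on its fold change.

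**Figure D2:**
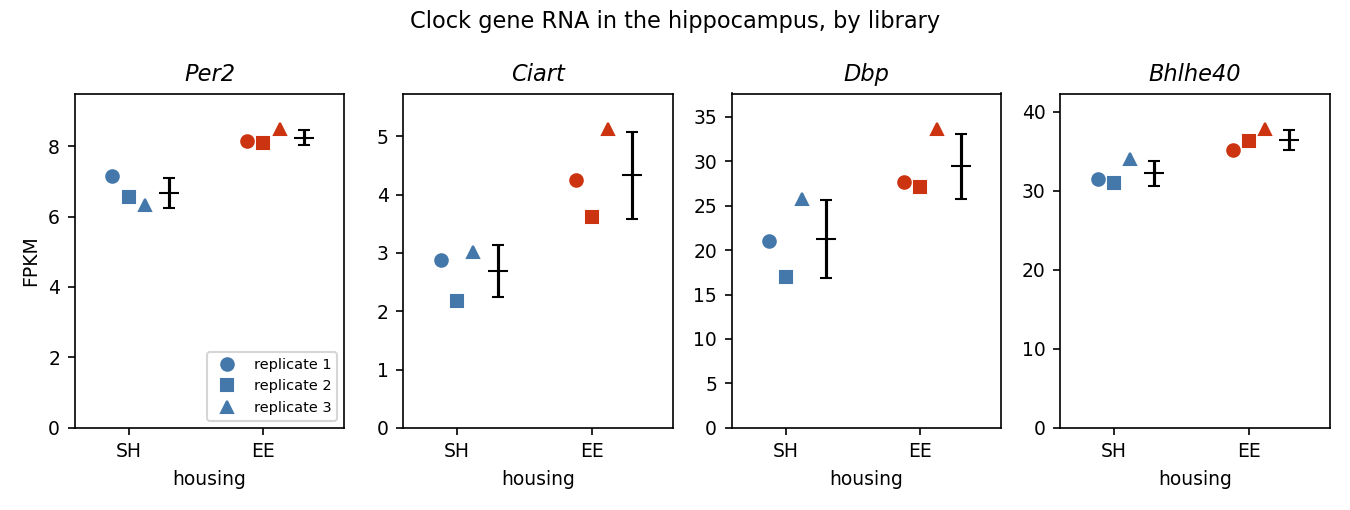
FPKM of Per2, Ciart, Dbp and Bhlhe40 in each SH (blue) and EE (red) library, with 1 symbol per replicate number, and the mean ± SD of the 3 libraries in black. In each of the 4 genes all EE libraries lie above all SH libraries, as in 37.2% of the 584 genes. Only the 246 genes higher in EE could show this, and 217 did. Per2 is at 8.08 to 8.48 in EE against 6.31 to 7.16 in SH, and Ciart at 3.62 to 5.12 against 2.18 to 3.01.

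Among the 584 genes, ordered from the largest rise to the largest fall, Ciart was at place 17 and Per2 at place 63. The median log2 fold change of the 246 higher genes was 0.21. By unadjusted p the order was the other way round, with Per2 at place 20 and Ciart at place 32. The standard error of the log2 fold change was 0.06 for Per2 and 0.15 for Ciart. The median over all 584 genes was -0.18, and it was 0.11 higher in the DESeq2 fit. Per2 lay 0.48 and Ciart 0.87 above this median, which is that of genes selected for a difference, most of them lower in EE, so these distances are no measure of the rise itself. The log2 fold change itself moved with the scaling, for Per2 from 0.25 with the sums of the table to 0.38 under TMM, and it was 0.41 in the DESeq2 fit.

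**Figure D3:**
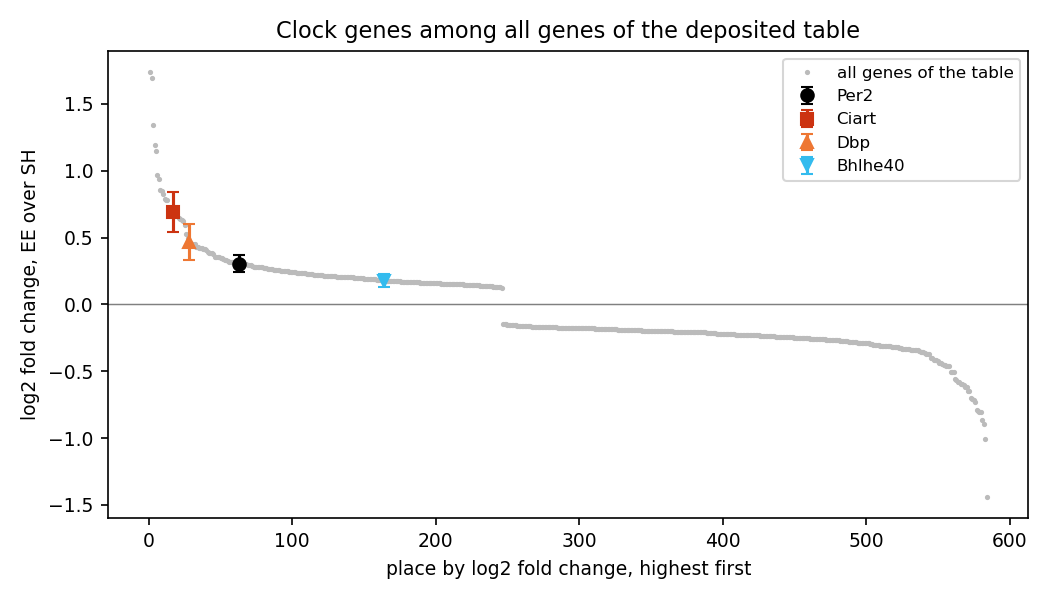
Log2 fold change of EE over SH (edgeR) for the 584 genes, ordered from highest to lowest, with Per2, Ciart, Dbp and Bhlhe40 marked and their standard errors as bars. Ciart is at place 17 with 0.69 and Per2 at place 63 with 0.31, and all genes had been selected for a difference.

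To compare the size of both changes, the ratio of Ciart to Per2 was taken within each library, which removes the library size. On the log2 scale it was -1.31, -1.59 and -1.07 in SH replicates 1, 2 and 3. In EE replicates 1, 2 and 3 it was -0.94, -1.16 and -0.73. The groups overlapped, since EE replicate 2 lay below SH replicate 3. In SH the log2 ratio averaged -1.32 ± 0.26 (SD, n = 3), and in EE it averaged -0.94 ± 0.22 (SD, n = 3). The difference was 0.38 (standard error 0.19), with p = 0.2 in a two-sided exact permutation test, where 3 libraries against 3 cannot go below 0.1. Without SH replicate 2 the difference was 0.25. The change of Ciart was thus not shown to be larger than that of Per2 beyond the spread between libraries. The Ciart over Dbp ratio differed by 0.20 (standard error 0.09), with p = 0.2 in the same exact permutation test. Per length, Per2 RNA was 2.48 times as abundant as Ciart RNA in SH and 1.90 times in EE.

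**Figure D4:**
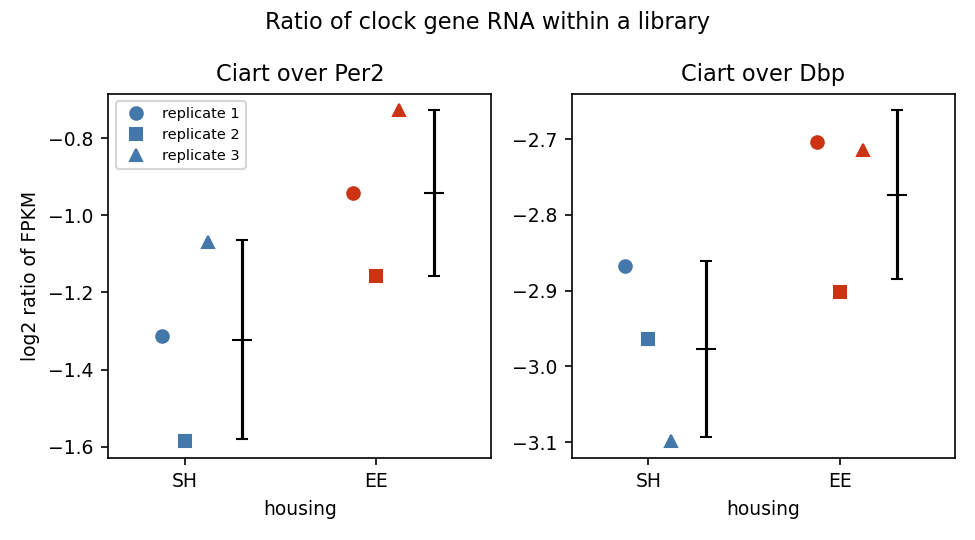
Log2 ratio of FPKM of Ciart over Per2 and of Ciart over Dbp within each library, SH in blue and EE in red, with mean ± SD of the 3 libraries in black. The Ciart over Per2 ratio runs from -1.59 to -1.07 in SH and from -1.16 to -0.73 in EE, so the groups overlap, and the Ciart over Dbp ratios overlap too.

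By measured rank, Per2 and Ciart ordered the EE libraries alike and the SH libraries differently. Neither the Per2 order in EE nor the difference in SH was clearly separated from the counting error. In EE, replicate 2 was lowest and replicate 3 highest for both genes. In SH, replicate 3 was highest for Ciart and lowest for Per2, and replicate 1 was highest for Per2. Several of these steps were small. For Per2, EE replicate 1 was 0.85% above EE replicate 2, where the counting error of the comparison was 3.20%, and SH replicate 2 was 3.61% above SH replicate 3, with a counting error of 3.62%. The other Per2 step in EE, replicate 3 at 4.03% above replicate 1, was little more than its counting error of 3.01%. The top of the Per2 order in SH was clearer, with replicate 1 at 9.36% above replicate 2 and a counting error of 3.72%. For Ciart, SH replicate 3 was 4.29% above replicate 1 with a counting error of 8.55%, so these libraries were not separated. With these steps left undecided, an order of replicate 1, then 3, then 2 from the highest would fit both genes in SH. For Ciart, SH replicate 2 was lowest, with replicate 1 at 32.2% above it and a counting error of 9.32%. In EE both steps of Ciart, 17.2% from replicate 2 to replicate 1 and 20.7% from replicate 1 to replicate 3, exceeded their counting errors.

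The spread of Ciart between libraries was larger than reads alone would give. Its coefficient of variation was 16.6% in SH and 17.4% in EE, against a counting error of 6.28% and 4.58%. For Per2 it was 6.52% in SH, against a counting error of 2.60%. In EE it was 2.58%, close to the counting error of 2.15%, so the EE libraries were hardly told apart by Per2. These counting errors cover the sampling of reads only.

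**Figure D5:**
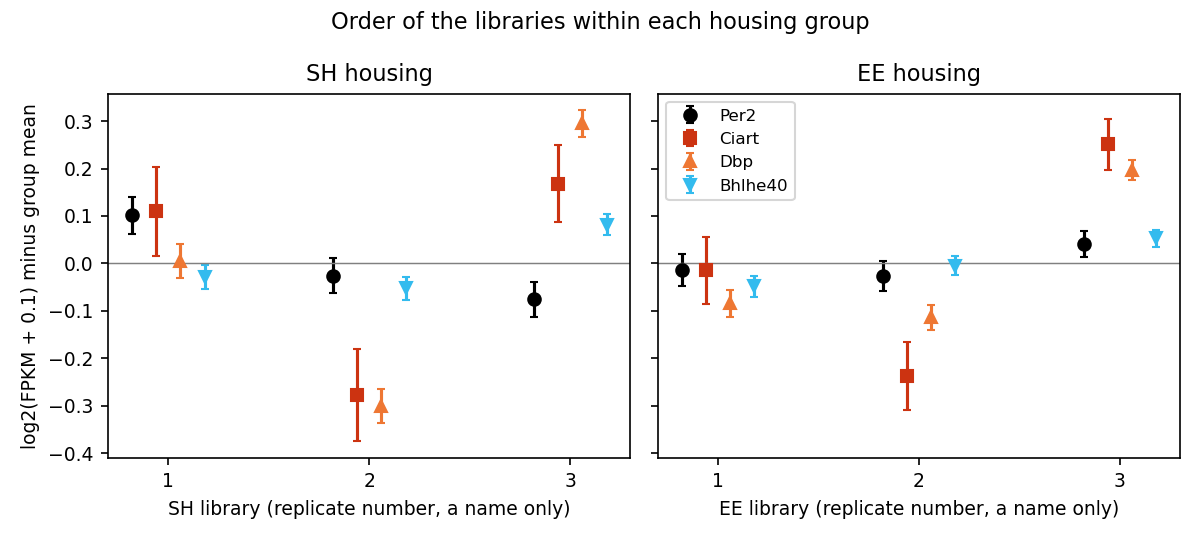
Deviation of log2(FPKM + 0.1) from the group mean for Per2, Ciart, Dbp and Bhlhe40 in each library, with bars for the counting error of the reads. In SH, replicate 3 is highest for Ciart, Dbp and Bhlhe40 and lowest for Per2, and in EE it is highest for all 4 genes.

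Of the 26 genes listed for the clock loop, its output factors, kinases and ligases, 4 were in the table, and 4 of these 4 were higher in EE at an unadjusted p under 0.01 in edgeR. Over all 584 genes, each already selected for a difference, this share was 19.2%, and it moved with the scaling, from 25 genes with the sums of the table to 229 under TMM. The 19.2% is 112 genes, and only the 246 genes higher in EE could be among them. The other 22 listed clock genes, among them Arntl, Clock, Per1, Per3, Cry1, Cry2, Nr1d1 and Nr1d2, were not among the genes the authors had called. They were not analysed here. Dbp, a PAR bZIP activator that the loop drives through E-boxes and that acts on D-boxes, had an FPKM of 21.0, 17.0 and 25.8 in SH replicates 1, 2 and 3. In EE replicates 1, 2 and 3 it had 27.6, 27.1 and 33.6. The groups did not overlap, but the lowest EE library was only 1.05 times the highest SH library. The log2 fold change of Dbp was 0.47 (standard error 0.13), and edgeR gave an unadjusted p of 0.0056 and an adjusted p of 0.016. The unadjusted p was above 0.01 without SH replicate 2 (0.015) or without EE replicate 3 (0.030), both from edgeR. Dbp shares 21.4% of its exon bases with Sphk2 on the opposite strand, which fell from an FPKM of 4.98 ± 0.20 to 4.25 ± 0.21 (SD, n = 3).

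Bhlhe40, also called DEC1, encodes a repressor that competes for E-boxes. Its FPKM was 31.5, 31.0 and 34.0 in SH replicates 1, 2 and 3 and 35.2, 36.3 and 37.8 in EE replicates 1, 2 and 3. The groups did not overlap, and the step between them was narrow, the lowest EE library at 1.03 times the highest SH library. Its log2 fold change of 0.18 (standard error 0.05) had an unadjusted p of 0.0063 from edgeR. With the sums of the table as library sizes, the log2 fold change was 0.12 and the unadjusted p from edgeR was 0.094. In DESeq2 the log2 fold change was 0.29. The unadjusted p from edgeR was above 0.01 in 4 of 6 fits that left out a library. Those were the fits without SH replicate 1, SH replicate 2, EE replicate 2 or EE replicate 3. The 4 clock genes thus ranked Ciart, Dbp, Per2 and Bhlhe40 by the size of the rise, and Bhlhe40, Dbp, Per2 and Ciart by level. Of the 6 pairs of these genes, whose ratios other than Ciart over Per2 were added after the data were seen, only the Ciart over Bhlhe40 ratio did not overlap between groups. It differed by 0.51 on the log2 scale (p = 0.1 in the exact permutation test, adjusted p = 0.3 over the 6 pairs).

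By measured rank, Ciart and Dbp ordered the libraries alike in each housing group. In SH, replicate 2 was lowest and replicate 3 highest for both genes, and this was so in EE too. Part of this likeness rests on steps within the counting error, since Dbp in EE replicate 1 was 2.11% above replicate 2 with a counting error of 2.70%, and Ciart in SH replicates 1 and 3 was not separated. The correlation of within-group deviations of log2(FPKM + 0.1) over the 6 libraries, in which 4 values are free, was 0.89 between Ciart and Dbp, place 13 among the 583 other genes. It was 0.66 between Ciart and Bhlhe40 and 0.33 between Ciart and Per2, at places 55 and 202. For Per2, the values were 0.33 with Ciart, -0.03 with Dbp and -0.28 with Bhlhe40. All of these values share the same 6 libraries and their depth, and no test was made on them.

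By the same measure the genes most like Per2 were Rxra, AI480526, Bc1, Htr4 and LOC105244657, with correlations from 0.96 to 0.98. Of these, only Htr4, a serotonin receptor, was higher in EE, with a log2 fold change of 0.30. Rxra, a retinoid X receptor, was lower with -0.29, as were AI480526 (-0.30), Bc1 (-1.01) and LOC105244657 (-0.89). The genes most like Ciart were Rtn2, Zfp46, C2cd4c, Hnrnpdl and Smoc2, with correlations from 0.95 to 0.98. Zfp46 (0.22) and Hnrnpdl (0.16) were higher in EE, and Rtn2 (-0.21), C2cd4c (-0.34) and Smoc2 (-0.26) were lower. All of these genes were picked as the highest of 583 over few free values, so high correlations come with the choice. The log2 fold changes nearest to that of Per2 were those of Htr2a, Tatdn1, Idi1, Htr4 and Lingo3, between 0.30 and 0.31, and the unadjusted p in edgeR was above 0.01 for Htr2a (0.011) and Lingo3 (0.018). Those nearest to Ciart were Gm32810, B230110G15Rik, Synj2bp-cox16, Actn3 and LOC328448, between 0.67 and 0.72, with an unadjusted p under 0.01 for Gm32810 and LOC328448. All 5 had a lower mean FPKM than Ciart in both groups, at most 1.06 in SH and 1.71 in EE.

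Of 15 genes linked to the clock outside the loop, 4 were in the table. Hif1a, a hypoxia factor of the same protein family as CLOCK, was higher in EE at an unadjusted p under 0.01, with a log2 fold change of 0.16. This is 1 of 4, where 19.2% of all 584 genes were higher at this threshold. Prkaa2, a catalytic subunit of AMPK, Rbm3, a cold-inducible RNA-binding protein, and Klf10, a zinc finger factor under clock control, had log2 fold changes of 0.21, 0.30 and 0.28 with unadjusted p-values of 0.017, 0.030 and 0.033 from edgeR.

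Of 18 genes listed for the glucocorticoid response, which holds Per2, 5 were in the table, 2 of them higher and 1 lower at an unadjusted p under 0.01 in edgeR, against the 19.2% and 40.6% of all 584 genes. The higher genes were Per2 and Errfi1, an inhibitor of the EGF receptor, with a log2 fold change of 0.21. Zbtb16, a zinc finger factor induced by glucocorticoid in other tissues, was lower, with -0.33. Nr3c2, the mineralocorticoid receptor, and Sgk1, a kinase, had log2 fold changes of 0.15 and 0.29 with unadjusted p-values of 0.010 and 0.012 from edgeR, and the groups overlapped in Sgk1. Of 28 genes listed as regulated by neuronal activity, 16 were in the table, 9 of them higher and 2 lower at this threshold. The log2 fold change of Per2, 0.31, lay between those of Bdnf (0.25) and Ptgs2 (0.35), and that of Ciart, 0.69, between those of Nptx2 (0.41) and Atf3 (0.93). These 4 had the lowest p-values in that list.

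Markers of other cell types were measured beside these values. The astrocyte genes Aldh1l1 and Gja1 had log2 fold changes of -0.21 and -0.15, and the endothelial genes Cldn5 and Cd34 had -0.44 and -0.25, against 0.28 for the endothelial gene Slco1a4. The microglial gene P2ry12 had 0.24, Neurod6 had 0.17 and the blood gene Hba-a1 had 0.36. Their part in the rise of Per2 and Ciart was not tested.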

How the data were processed

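The authors mapped reads to mm10 with Hisat2, counted reads per gene with FeatureCounts, and deposited raw counts and FPKM of 584 genes they had called with edgeR. The authors computed the deposited FPKM from the count, gene length and library reads. Their p-values and fold changes, in the same table, were not used, and 6 libraries of m6A immunoprecipitation were left out. The reads behind each library's FPKM were recovered by dividing counts by FPKM and by RefSeq exon lengths (GRCm38.p6), with 205 genes giving the same total within 0.001%. All 584 genes were fitted with edgeR 4.0.16 (R 4.3.3, quasi-likelihood, no low-count filter, unadjusted p under 0.01). Standard errors are the log2 fold change over the square root of F. On simulated counts of the 584 genes, edgeR called 93% of 100 genes with a log2 change of 0.4, 42% of 100 with 0.2 and 1.6% of 384 without one. The simulation gave every gene the same dispersion between libraries, set lower than the spread of Ciart and Dbp here. These shares therefore do not hold for such genes. limma 3.58.1 and DESeq2 1.42.0 were alternatives.

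The members and lists were chosen with earlier results of these data known. Named genes are Per2 and Ciart, the listed clock genes in the table, the genes of lowest p in each list, and, for Per2 and Ciart, the 5 genes nearest in within-group deviations and in fold change. Markers, Sphk2, Sgk1, genes with an E-box, and genes named for an overlap were chosen beside this rule. The labels number the replicates but do not link SH and EE samples or say which shared a cage, so p-values measure the spread between these samples, which may be partly technical.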

Additional observations from a re-analysis of the deposited data

How the results depend on the processing

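Ciart kept its direction and stayed under an unadjusted p of 0.01 in all 16 alternatives, with log2 fold changes from 0.53 to 0.80, and Per2 in 15 of 16, the exception being the fit without replicate 3 of both groups (0.25). With each library left out, Per2 ranged from 0.27 to 0.36, Ciart from 0.55 to 0.80, Dbp from 0.33 to 0.63 and Bhlhe40 from 0.15 to 0.22. Dbp was above 0.01 in limma with a pseudocount of 0.1 (0.48) or 0.01 (0.48), and Bhlhe40 in limma with 0.1 (0.18), 1 (0.17) or 0.01 (0.18) and with the sums of the table as library sizes (0.12). The cause was not tested. Under TMM and DESeq2 the values were higher, at 0.38 and 0.41 for Per2 and 0.26 and 0.29 for Bhlhe40. Genes under 0.01 ranged from 135 to 324 with each library left out, against 349 (135 without EE replicate 2, 140 without EE replicate 1 and 165 without SH replicate 2), where fewer samples enter the fit. Whether the replicate numbers pair the samples could not be settled here, since the labels do not link them. The correlation of deviations of same-numbered SH and EE libraries was 0.15, -0.04 and -0.10. Not every library correlated best with its own number. With the replicate number as a block, 214 genes were under 0.01 and all 4 clock genes remained under it. The log2 fold changes of Per2 and Ciart were 0.31 and 0.69, which a block of equal groups leaves nearly unchanged. Their standard errors went from 0.06 to 0.07 for Per2 and from 0.15 to 0.09 for Ciart. For Dbp the standard error went from 0.13 to 0.07, and for Bhlhe40 it stayed at 0.05. The same-numbered differences of the Ciart to Per2 log2 ratio were 0.37, 0.43 and 0.34. The difference between the changes of Ciart and Per2 was between 0.25 and 0.51 in the 10 alternatives tried, whose permutation p-values say nothing of stability at these sample numbers. Raw counts and the replicate block, which are among them, leave this difference unchanged by construction, so they are no check of it. Ciart rests on 220 to 722 reads per library, which limits how finely its libraries are told apart.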
